A study of Homo sapiens with 12 samples.

Results

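Kinetochore, spindle checkpoint and cytokinesis genes were followed in PC3, an established human prostate cancer cell line, as 50 genes named by symbol out of 43613 genes in the count table. They were chosen by name for their roles in chromosome segregation, with earlier results of these data known. All 50 were found in the table and all 50 passed the filter on low counts, which 19986 genes passed. The libraries form 4 groups of 3. AgNPs libraries came from cells given silver nanoparticles, DOC libraries from cells given DOC, COM libraries from cells given AgNPs and DOC together, and BLANK libraries from cells given PBS. All groups share the cell line, labelled wild type, and RNA was extracted with TRIzol and made into libraries with an mRNA kit. DOC is not spelled out in the labels, which give neither doses nor times of exposure and name no batch. Whether the replicates of a group were grown separately is not stated, so the p-values speak only of the spread among these libraries.

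At mitosis each chromosome builds a kinetochore on its centromere, and microtubules of the spindle attach to it through the NDC80 complex and the KNL1 scaffold. Unattached kinetochores hold CDC20 away from the anaphase promoting complex through the spindle checkpoint, until that ubiquitin ligase can mark securin and cyclin B for destruction and separase can cut cohesin. The chromosomal passenger complex corrects faulty attachments and then guides the central spindle, where PRC1, ECT2, RACGAP1 and anillin set the place of the division furrow. Most of these genes are transcribed in a peak late in the cell cycle, so that their RNA in a bulk culture follows both the number of cells near division and the RNA per such cell. These cannot be told apart here.

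Many promoters of late cell cycle genes carry a cell cycle genes homology region, TTTGAA or TTCGAA, and CCAAT boxes. RefSeq promoter windows of 300 bases on GRCh38.p14, from 250 before the start to 50 after it, were found for 41 of the 50 genes, as 48 windows because 7 genes had more than 1. TTTGAA on either strand lay in 31 of the 48 windows, or 64.6%, against 15.2% of all 35116 windows. TTCGAA lay in 8.33% of the genes' windows, against 1.45% of all windows. CCAAT on either strand lay in 35, or 72.9%, against 34.6% of all windows, and 25 windows, or 52.1%, held both TTTGAA or TTCGAA and CCAAT, against 6.38% of all windows. The 150 bases before the start are printed for 4 genes with large falls or a central role and for 2 that did not fall, with matches to these letters on either strand in capitals.
SAPCD2, chr9:137070558-137070707, strand -: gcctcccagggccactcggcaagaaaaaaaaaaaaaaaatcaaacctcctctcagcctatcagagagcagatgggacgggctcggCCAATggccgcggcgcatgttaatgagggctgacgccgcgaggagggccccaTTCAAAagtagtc
CENPF, chr1:214603045-214603194, strand +: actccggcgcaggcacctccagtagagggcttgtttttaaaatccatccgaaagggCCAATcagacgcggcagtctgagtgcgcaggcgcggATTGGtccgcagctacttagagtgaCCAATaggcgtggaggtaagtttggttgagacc
MKI67, chr10:128126424-128126573, strand -: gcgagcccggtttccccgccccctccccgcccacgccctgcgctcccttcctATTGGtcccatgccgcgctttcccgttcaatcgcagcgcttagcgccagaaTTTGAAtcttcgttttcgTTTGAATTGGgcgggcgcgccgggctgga
PLK1, chr16:23678739-23678888, strand +: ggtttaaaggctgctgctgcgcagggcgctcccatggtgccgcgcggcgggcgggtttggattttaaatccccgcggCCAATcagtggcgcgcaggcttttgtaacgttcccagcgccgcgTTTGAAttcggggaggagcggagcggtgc
CDCA5, chr11:65084041-65084190, strand -: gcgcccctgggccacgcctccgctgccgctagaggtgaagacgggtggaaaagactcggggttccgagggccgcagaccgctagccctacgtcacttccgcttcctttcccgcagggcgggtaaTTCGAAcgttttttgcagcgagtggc
SGO1, chr3:20186207-20186356, strand -: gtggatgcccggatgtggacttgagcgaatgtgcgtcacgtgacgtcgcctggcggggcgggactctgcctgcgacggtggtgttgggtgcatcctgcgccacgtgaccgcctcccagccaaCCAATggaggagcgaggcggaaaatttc
SAPCD2, MKI67 and PLK1 hold TTTGAA or its reverse complement TTCAAA between 47 and 13 bases before the start, and in MKI67 the match nearest the start overlaps a CCAAT match on the other strand, read as ATTGG. CENPF holds 3 CCAAT matches and no TTTGAA in the stretch printed. CDCA5 holds TTCGAA, 26 bases before the start, and SGO1 holds CCAAT alone in the stretch printed. Over the full windows, which run to 50 bases after the start, CENPF also counts as holding TTTGAA and SGO1 as holding TTCGAA. Such a match is a description of the letters, not a site. The 29 genes with TTTGAA had a median log2 change of -0.53 in COM vs BLANK, and the 12 matched genes without it had -0.38. The ranges overlapped, from -1.26 to -0.30 with the letters and from -0.79 to 0.08 without. For TTCGAA the order was the other way, with a median of -0.08 for the 4 genes with it and -0.51 for the 37 without. With either set of letters counted, the medians were -0.51 for 32 genes and -0.41 for 9 without in COM, and -0.40 and -0.39 in AgNPs vs BLANK.

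Summed linear counts ran from 10996446 to 22769479 per library, with COM the shallowest group and BLANK the deepest, and 3 counts corresponded to 0.132 to 0.273 CPM. DOC replicate 1 stood apart from DOC replicates 2 and 3, with a chi-square per degree of freedom of 4.48 and 4.81, and BLANK replicate 1 from BLANK replicates 2 and 3, with 3.75 and 3.5. The other replicate pairs gave 1.45 to 1.99. The 5 epithelial markers summed to 594 to 607 CPM in AgNPs, 496 to 563 CPM in DOC, 525 to 556 CPM in COM and 535 to 564 CPM in BLANK. This sum was mostly KRT8, KRT18 and KRT19. EPCAM was at 6.5 to 12 CPM and CDH1 at 2.36 to 3.89 CPM over all libraries. The luminal prostate gene TMPRSS2 was at or near 0, at 0.0758 CPM or less in every library. Among markers of other cells, the fibroblast list summed to 81.7 to 93.8 CPM in AgNPs, 99.9 to 116 in DOC, 70.5 to 77.2 in COM and 99.1 to 113 in BLANK, mostly COL1A2 at 50.3 to 95.8 CPM and COL1A1 at 14.2 to 23.8 CPM over all libraries, while its other defining genes DCN and LUM were at or near 0. The neuroendocrine list, mostly ENO2, summed to 35.3 to 36.4 CPM in AgNPs, 30.3 to 31.8 in DOC, 41.1 to 45.1 in COM and 29.3 to 30.2 in BLANK. Immune markers, mostly CD68 with PTPRC at or near 0, summed to 37.9 to 44 CPM in AgNPs, 48 to 49.2 in DOC, 48.1 to 54.7 in COM and 40.3 to 44.6 in BLANK. Endothelial markers summed to 8.38 to 9.5 CPM in AgNPs, 9.89 to 10.6 in DOC, 9.64 to 10.6 in COM and 7.54 to 8.06 in BLANK, with each treatment above BLANK. This sum was mostly KDR at 4.43 to 6.85 CPM and PECAM1 at 1.8 to 4.34 CPM, with VWF and CDH5 at 0.518 CPM or less in every library. The part of these shifts in the results below was not tested.

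In AgNPs vs BLANK, 44 of the 50 genes fell, none rose and 6 did not pass the test, beside 30.9% of all tested genes called, 16% lower and 14.9% higher. Their median log2 change was -0.38, beside 0.01 over all genes tested. Of the 12400 protein-coding genes counted mainly on RefSeq rows, 22.8% were lower in AgNPs, 14.9% in DOC and 34.8% in COM. All 3 AgNPs libraries lay below all 3 BLANK libraries for 44 genes, beside 21.2% of all genes, and above them for 1, SPC24, beside 21.3%. In DOC vs BLANK, 17 of 50 fell and none rose, with a median of -0.07, beside 17% of all genes called, 9.81% lower and 7.16% higher. In COM vs BLANK, 46 fell and none rose, with a median of -0.47, beside 49.6% of all genes called, 24.5% lower and 25.1% higher. The DOC and BLANK libraries did not overlap for 25 lower genes (16.8% of all genes) and 0 higher ones (14.7%), and the COM and BLANK libraries for 46 (27.4% of all genes). The 3 comparisons share their BLANK libraries. The falls were moderate in size: 13 genes were at a log2 change of -0.5 or less in AgNPs, 0 in DOC and 23 in COM, beside 3.48%, 1.33% and 7.29% of all genes, and 3, CENPF, MKI67 and SAPCD2, were at -1 or less in COM.

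Summed over all 50 genes, AgNPs libraries gave 5317 to 5328 CPM of the library's linear counts, DOC libraries 6599 to 6933 CPM, and COM libraries 4666 to 4748 CPM, against 7080 to 7129 CPM in BLANK libraries. No 2 groups overlapped in this sum. Per length, the ubiquitin-conjugating enzyme gene UBE2S was the highest of the 50 and CKAP2L the lowest, at 336.5 ± 9.3 and 10.8 FPKM in BLANK (SD, n = 3). UBE2S has 2 annotated pseudogenes, and 20 other genes of the 50 have at least 1 pseudogene named after them, UBE2C the most with 5, so reads of these genes may be split with copies.

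**Figure D1:**
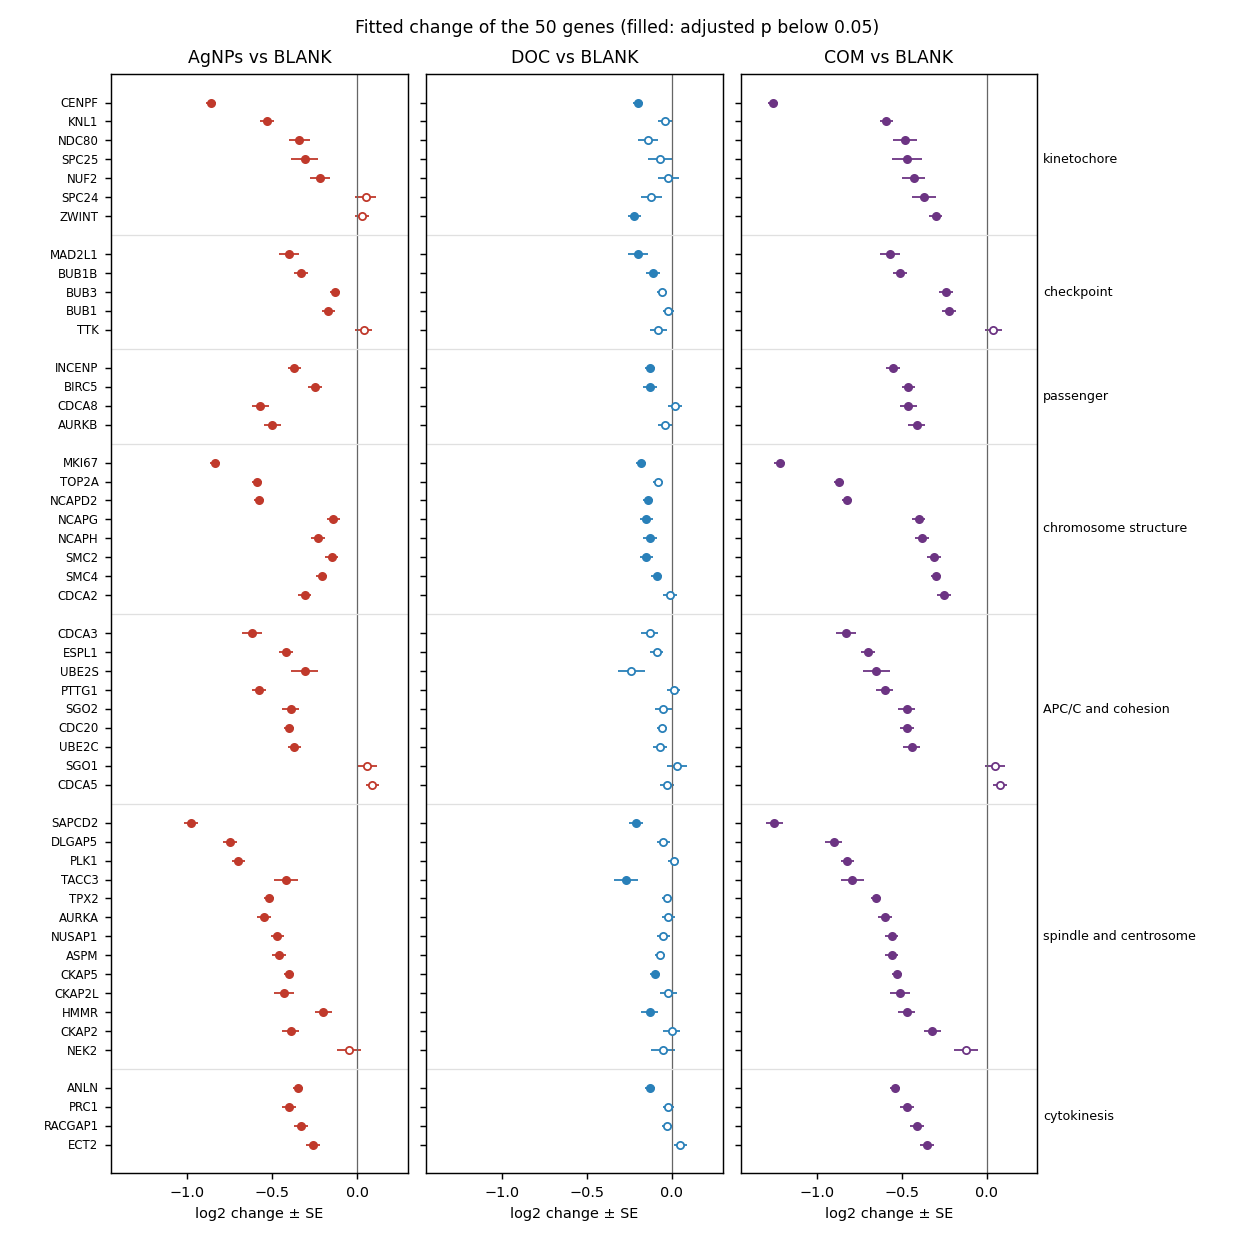
Fitted log2 change, with its standard error, of each of the 50 genes in AgNPs, DOC and COM against BLANK, grouped by role; filled points were called at an adjusted p below 0.05 and open points were not. Most genes lie left of 0 in AgNPs and COM, and TTK, SGO1, CDCA5 and NEK2 were called in none of the 3.

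Among the 7 outer kinetochore genes, 5 fell in AgNPs, 2 in DOC and all 7 in COM, with medians of -0.31, -0.12 and -0.47. CENPF (chr1:214603195-214664571 on GRCh38), a large coiled-coil protein of the fibrous corona, changed most. CENPF had 290.3, 289 and 291 CPM in AgNPs, 490.1, 434 and 451 CPM in DOC and 224, 213 and 222 CPM in COM, against 528, 529.8 and 519 CPM in BLANK. No 2 groups overlapped, and COM was the lowest. Its log2 changes against BLANK were -0.86 ± 0.03 (adjusted p = 9.73e-21) in AgNPs, -0.20 ± 0.03 (adjusted p = 3.74e-05) in DOC and -1.26 ± 0.03 (adjusted p = 1.84e-25) in COM. KNL1 had 84.8, 76.2 and 78.7 CPM in AgNPs, 113, 109 and 114 CPM in DOC and 74.5, 74.7 and 80.3 CPM in COM, against 121, 114 and 112 CPM in BLANK. KNL1 (chr15:40594249-40664342) is the scaffold on which BUB proteins gather. All AgNPs and COM libraries lay below all BLANK libraries, while DOC overlapped BLANK. The changes were -0.53 ± 0.04 (adjusted p = 9.87e-13) in AgNPs, -0.04 ± 0.04 (adjusted p = 0.484) in DOC and -0.59 ± 0.04 (adjusted p = 4.46e-14) in COM. ZWINT had 153, 149.8 and 154 CPM in AgNPs, 141, 122 and 120.2 CPM in DOC and 120, 119 and 123 CPM in COM, against 146, 151 and 150 CPM in BLANK. ZWINT (chr10:56357227-56361273), which links KNL1 to the RZZ complex, was lower in DOC and COM and overlapped BLANK in AgNPs. Its changes were 0.03 ± 0.04 (adjusted p = 0.648) in AgNPs, -0.22 ± 0.04 (adjusted p = 0.000325) in DOC and -0.30 ± 0.04 (adjusted p = 1.04e-06) in COM. Not all subunits of the NDC80 complex, which grips microtubules, were called lower in AgNPs: NDC80 changed by -0.34 ± 0.06 (adjusted p = 4.47e-05), NUF2 by -0.22 ± 0.06 (adjusted p = 0.00478) and SPC25 by -0.31 ± 0.08 (adjusted p = 0.00268), while SPC24 stood at 0.05 ± 0.06 (adjusted p = 0.583). Differences between subunits were not tested. In COM all 4 subunits fell, with SPC24 at -0.37 ± 0.07 (adjusted p = 9.55e-05). SPC24 had 57.6, 55.9 and 56.0 CPM in AgNPs and 44.5, 40.5 and 41.0 CPM in COM, against 52.3, 55.2 and 55.7 CPM in BLANK. The NUF2 call in AgNPs ended without AgNPs replicate 3 (log2 -0.18, adjusted p = 0.0561).

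Of the 5 checkpoint genes, 4 fell in AgNPs, 2 in DOC and 4 in COM, with medians of -0.17, -0.08 and -0.24. MAD2L1 had 30.3, 32.6 and 36.2 CPM in AgNPs, 37.5, 39.9 and 36.4 CPM in DOC and 31.2, 27.5 and 29.8 CPM in COM, against 42.1, 45.8 and 43.1 CPM in BLANK. MAD2L1 (chr4:120055623-120066848), the gene of MAD2 that captures CDC20, was below BLANK in all 3 treatments without overlap, and AgNPs and COM overlapped each other. Its log2 changes were -0.40 ± 0.06 (adjusted p = 1.82e-06) in AgNPs, -0.20 ± 0.06 (adjusted p = 0.00995) in DOC and -0.57 ± 0.06 (adjusted p = 2.3e-09) in COM. BUB1B had 76.2, 78.9 and 72.6 CPM in AgNPs, 85.3, 90.8 and 89.3 CPM in DOC and 67.2, 66.3 and 67.2 CPM in COM, against 99.2, 95.3 and 92.1 CPM in BLANK. BUB1B (chr15:40161069-40221123) encodes BUBR1, which binds the anaphase promoting complex with MAD2 and BUB3. No 2 groups overlapped. The changes were -0.33 ± 0.04 (adjusted p = 3.7e-08) in AgNPs, -0.11 ± 0.04 (adjusted p = 0.0403) in DOC and -0.51 ± 0.04 (adjusted p = 1.57e-12) in COM, and the DOC call ended without any 1 of 6 libraries (adjusted p from 0.0516 to 0.187), namely BLANK replicate 1 or 2, AgNPs replicate 1 or 2 and DOC replicate 1 or 3. TTK had 71.3, 67.0 and 69.7 CPM in AgNPs, 60.8, 64.6 and 66.7 CPM in DOC and 67.2, 69.0 and 71.4 CPM in COM, against 72.8, 65.2 and 64.6 CPM in BLANK. TTK (chr6:80004649-80042527), the MPS1 kinase that starts checkpoint signalling, overlapped between each treatment and BLANK. Its changes were 0.04 ± 0.05 (adjusted p = 0.598) in AgNPs, -0.08 ± 0.05 (adjusted p = 0.27) in DOC and 0.04 ± 0.05 (adjusted p = 0.582) in COM. The kinase BUB1 and its partner BUB3 changed by -0.22 ± 0.04 (adjusted p = 1.04e-05) and -0.24 ± 0.04 (adjusted p = 3.54e-07) in COM.

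All 4 genes of the chromosomal passenger complex fell in AgNPs and in COM, and 2 in DOC, with medians of -0.43, -0.46 and -0.09. INCENP had 127, 127 and 120.2 CPM in AgNPs, 152, 143 and 145 CPM in DOC and 107, 114 and 109 CPM in COM, against 160.4, 158 and 164 CPM in BLANK. INCENP (chr11:62124011-62153169), the scaffold of the complex, separated all 4 groups. Its log2 changes were -0.37 ± 0.04 (adjusted p = 1.76e-10) in AgNPs, -0.13 ± 0.03 (adjusted p = 0.00511) in DOC and -0.55 ± 0.04 (adjusted p = 4.64e-15) in COM. BIRC5 had 171, 165 and 157 CPM in AgNPs, 187, 175 and 172 CPM in DOC and 148, 138 and 139.8 CPM in COM, against 184, 202 and 199.6 CPM in BLANK. BIRC5 (chr17:78214253-78225635), which encodes survivin, was lowest in COM, and DOC overlapped BLANK. Its changes were -0.25 ± 0.04 (adjusted p = 8.51e-06) in AgNPs, -0.13 ± 0.04 (adjusted p = 0.0138) in DOC and -0.46 ± 0.04 (adjusted p = 5.52e-11) in COM. The DOC call of BIRC5 ended without BLANK replicate 2 or 3 or DOC replicate 2 or 3 (adjusted p up to 0.0933). AURKB had 45.4, 44.0 and 48.2 CPM in AgNPs, 61.0, 62.5 and 65.3 CPM in DOC and 47.0, 50.6 and 48.0 CPM in COM, against 64.0, 63.0 and 67.0 CPM in BLANK. AURKB (chr17:8204731-8210575), the kinase of the complex, had AgNPs and COM below BLANK and overlapping each other. Its changes were -0.50 ± 0.05 (adjusted p = 1.39e-10) in AgNPs, -0.04 ± 0.04 (adjusted p = 0.582) in DOC and -0.41 ± 0.05 (adjusted p = 5.58e-09) in COM, with 87.6% of its counts on RefSeq rows, the lowest share among the 50 genes. CDCA8, the borealin gene, stood at -0.57 ± 0.05 (adjusted p = 3.7e-12) in AgNPs, 0.02 ± 0.04 (adjusted p = 0.833) in DOC and -0.46 ± 0.05 (adjusted p = 5.59e-10) in COM.

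**Figure D2:**
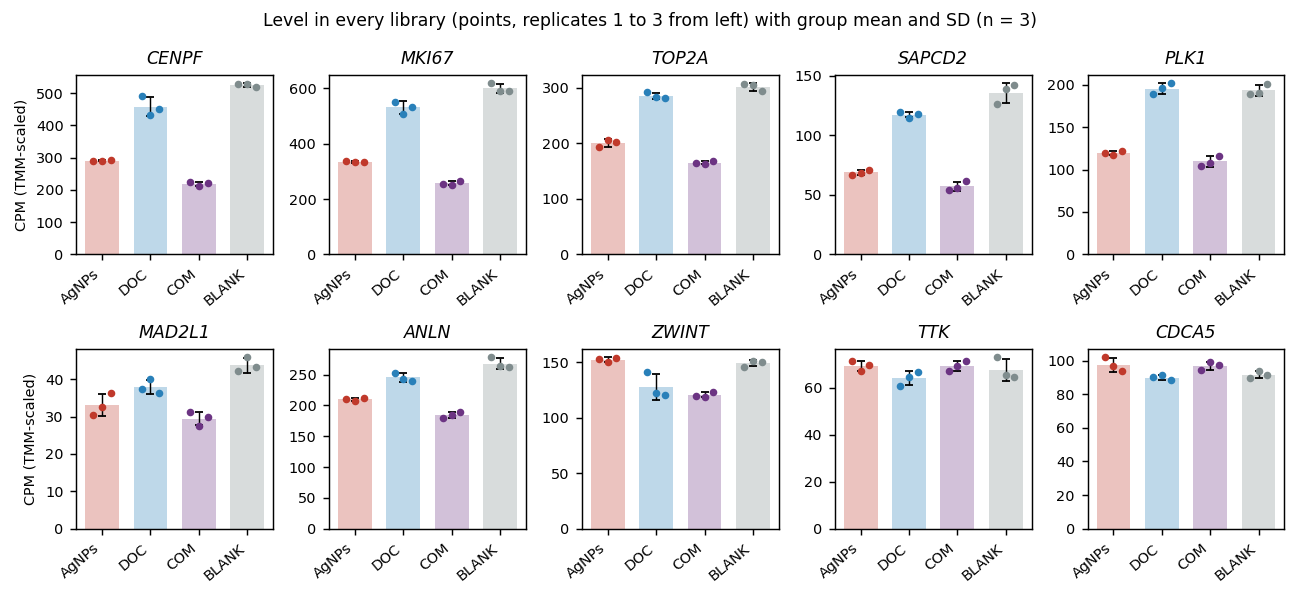
CPM of 10 genes in AgNPs, DOC, COM and BLANK; points are libraries, bars the mean and whiskers the SD (n = 3). CENPF, MKI67, TOP2A, SAPCD2 and ANLN separate all 4 groups, PLK1 has DOC beside BLANK, and TTK overlaps between each treatment and BLANK.

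All 8 genes of condensin and chromosome structure fell in AgNPs and in COM, and 6 fell in DOC, the largest share of the 7 roles in DOC. Their medians were -0.27, -0.39 and -0.13. MKI67 had 339, 333 and 334 CPM in AgNPs, 551, 506 and 534 CPM in DOC and 253, 251 and 265 CPM in COM, against 619, 589 and 589.8 CPM in BLANK. MKI67 (chr10:128096659-128126423) encodes the Ki-67 protein that coats mitotic chromosomes and marks cycling cells. The 4 groups did not overlap. Its log2 changes were -0.84 ± 0.03 (adjusted p = 2e-22) in AgNPs, -0.18 ± 0.03 (adjusted p = 6.25e-05) in DOC and -1.22 ± 0.03 (adjusted p = 2.07e-27) in COM. TOP2A had 193, 205 and 203 CPM in AgNPs, 291, 282 and 281 CPM in DOC and 164, 163 and 168 CPM in COM, against 306, 304 and 293 CPM in BLANK. TOP2A (chr17:40388525-40417896), the topoisomerase that untangles sister chromatids, also separated all 4 groups, with DOC close to BLANK. Its changes were -0.59 ± 0.03 (adjusted p = 1.21e-17) in AgNPs, -0.08 ± 0.03 (adjusted p = 0.0538) in DOC and -0.87 ± 0.03 (adjusted p = 1.47e-22) in COM. CDCA2 had 53.9, 56.4 and 53.3 CPM in AgNPs, 67.1, 66.0 and 68.5 CPM in DOC and 57.6, 56.0 and 57.8 CPM in COM, against 68.0, 67.7 and 67.5 CPM in BLANK. CDCA2 (chr8:25458931-25507917), which recruits phosphatase PP1 to chromosomes late in mitosis, was lower in AgNPs and COM, and these overlapped. Its changes were -0.31 ± 0.04 (adjusted p = 2.17e-07) in AgNPs, -0.01 ± 0.04 (adjusted p = 0.886) in DOC and -0.25 ± 0.04 (adjusted p = 9.93e-06) in COM.

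The 5 subunits of condensin I, which compacts mitotic chromosomes, were called lower in all 3 treatments. In COM they ranged from -0.30 ± 0.03 for the ATPase SMC4 to -0.82 ± 0.03 for the HEAT-repeat subunit NCAPD2. In DOC, NCAPG changed by -0.15 ± 0.04 (adjusted p = 0.00656), NCAPH by -0.13 ± 0.04 (adjusted p = 0.0247), NCAPD2 by -0.14 ± 0.03 (adjusted p = 0.000888), SMC2 by -0.15 ± 0.04 (adjusted p = 0.00285) and SMC4 by -0.09 ± 0.03 (adjusted p = 0.0264). In AgNPs, SMC2 was at -0.15 ± 0.04, NCAPG at -0.14 ± 0.04 and NCAPD2 at -0.58 ± 0.03. For NCAPD2 the size depended on the measure: per length it had 72.1 FPKM in AgNPs, 93.5 FPKM in DOC and 69.8 FPKM in COM, against 93.6 FPKM in BLANK (SD 8.5, 3.5, 6.3 and 3.8, n = 3 each). With limma on log2(FPKM + 1) its changes were -0.38 in AgNPs, 0.00 in DOC (adjusted p = 1) and -0.42 in COM, so that its DOC call ended. That fit ended the DOC calls of the other condensin I subunits too. Their adjusted p was 0.135 for NCAPG, 0.297 for NCAPH, 0.148 for SMC2 and 0.277 for SMC4. That fit also ended the AgNPs calls of NCAPG and SMC2 (adjusted p = 0.108 and 0.11), and of the checkpoint gene BUB3 (adjusted p = 0.0672). Some of these calls rested on single libraries. The DOC call ended for NCAPG without BLANK replicate 2 (adjusted p = 0.0603). It ended for NCAPH without BLANK replicate 2 or DOC replicate 2 or 3 (adjusted p up to 0.154), and for SMC4 without BLANK replicate 1 or DOC replicate 2 (adjusted p up to 0.16). The AgNPs call of NCAPG ended without BLANK replicate 2 or AgNPs replicate 1 (adjusted p up to 0.0725).

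Of the 9 genes of the anaphase promoting complex pathway and of cohesion, 7 fell in AgNPs, 0 in DOC and 7 in COM, with medians of -0.39, -0.06 and -0.47. CDCA3 had 27.0, 26.9 and 29.3 CPM in AgNPs, 37.8, 40.3 and 38.3 CPM in DOC and 25.03, 23.8 and 23.1 CPM in COM, against 41.9, 41.6 and 43.9 CPM in BLANK. CDCA3 (chr12:6844798-6851286) encodes an F-box-like protein that helps degrade WEE1. All 4 groups were apart. Its log2 changes were -0.62 ± 0.06 (adjusted p = 4.86e-11) in AgNPs, -0.13 ± 0.05 (adjusted p = 0.0729) in DOC and -0.83 ± 0.06 (adjusted p = 4.77e-14) in COM. ESPL1 had 60.3, 58.9 and 62.0 CPM in AgNPs, 74.9, 79.4 and 73.1 CPM in DOC and 49.2, 50.2 and 48.8 CPM in COM, against 79.8, 80.7 and 81.1 CPM in BLANK. ESPL1 (chr12:53268299-53293638), which encodes separase, likewise separated all groups. Its changes were -0.42 ± 0.04 (adjusted p = 4.15e-10) in AgNPs, -0.09 ± 0.04 (adjusted p = 0.117) in DOC and -0.70 ± 0.04 (adjusted p = 9.25e-16) in COM. The securin gene PTTG1 changed by -0.58 ± 0.04 (adjusted p = 3.18e-13) in AgNPs, 0.01 ± 0.04 (adjusted p = 0.939) in DOC and -0.60 ± 0.05 (adjusted p = 9.78e-14) in COM. CDC20 stood at -0.40 ± 0.03, -0.06 ± 0.03 and -0.47 ± 0.04 in the same order, and UBE2C at -0.37 ± 0.04, -0.07 ± 0.04 and -0.44 ± 0.05.

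UBE2S, the ubiquitin-chain elongating enzyme of the complex, varied with single libraries. UBE2S had 308, 296 and 302 CPM in AgNPs, 367, 297 and 289 CPM in DOC and 236, 244 and 234 CPM in COM, against 366, 370 and 388 CPM in BLANK. DOC replicate 1 lay within the BLANK range, and the other DOC libraries lay below it. Its DOC change was -0.24 ± 0.08 (adjusted p = 0.0817), and -0.35 ± 0.03 (adjusted p = 1.2e-13) without DOC replicate 1. Its AgNPs call, -0.31 ± 0.08 (adjusted p = 0.0193), ended without BLANK replicate 3 or without any 1 AgNPs library (log2 -0.31 to -0.28, adjusted p from 0.0542 to 0.074). The COM change of -0.65 ± 0.08 (adjusted p = 0.000175) kept its call without any 1 library. SGO1 had 31.4, 34.4 and 35.2 CPM in AgNPs, 33.3, 32.5 and 33.3 CPM in DOC and 32.0, 36.1 and 32.0 CPM in COM, against 34.7, 30.2 and 31.9 CPM in BLANK. SGO1 (chr3:20160593-20186886), the shugoshin that shields centromeric cohesin, overlapped in every pair of groups. Its changes were 0.06 ± 0.06 (adjusted p = 0.512) in AgNPs, 0.03 ± 0.06 (adjusted p = 0.756) in DOC and 0.05 ± 0.06 (adjusted p = 0.55) in COM. CDCA5 had 102, 96.5 and 93.8 CPM in AgNPs, 90.05, 91.3 and 88.2 CPM in DOC and 94.4, 99.1 and 97.5 CPM in COM, against 89.7, 93.9 and 91.6 CPM in BLANK. CDCA5 (chr11:65061093-65084040), the sororin gene that stabilises cohesin, had all COM libraries above all BLANK libraries, as 29.4% of all genes did. Its changes were 0.09 ± 0.04 (adjusted p = 0.0819) in AgNPs, -0.03 ± 0.04 (adjusted p = 0.636) in DOC and 0.08 ± 0.04 (adjusted p = 0.086) in COM, and it was called higher in AgNPs without AgNPs replicate 3 (adjusted p = 0.0302). The second shugoshin gene, SGO2, fell by 0.39 in AgNPs and by 0.47 in COM on the log2 scale.

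Of the 13 spindle and centrosome genes, 12 fell in AgNPs, 4 in DOC and 12 in COM, with medians of -0.46, -0.05 and -0.56. SAPCD2 had 66.9, 68.6 and 70.8 CPM in AgNPs, 119, 115 and 118 CPM in DOC and 53.7, 55.9 and 61.6 CPM in COM, against 126, 138 and 142 CPM in BLANK. SAPCD2 (chr9:137062127-137070557), a regulator of spindle orientation, separated all groups. Its log2 changes were -0.98 ± 0.04 (adjusted p = 1.02e-18) in AgNPs, -0.21 ± 0.04 (adjusted p = 0.000344) in DOC and -1.25 ± 0.05 (adjusted p = 2.82e-21) in COM. DLGAP5 had 67.0, 73.3 and 67.7 CPM in AgNPs, 120.4, 106 and 112 CPM in DOC and 61.6, 63.5 and 62.4 CPM in COM, against 117, 118 and 114 CPM in BLANK. DLGAP5 (chr14:55148135-55191585), which encodes the spindle assembly factor HURP, had DOC overlapping BLANK and the other treatments below. Its changes were -0.75 ± 0.04 (adjusted p = 1.53e-16) in AgNPs, -0.05 ± 0.04 (adjusted p = 0.436) in DOC and -0.90 ± 0.05 (adjusted p = 1.28e-18) in COM. NEK2 had 30.5, 32.9 and 28.3 CPM in AgNPs, 32.1, 27.6 and 32.3 CPM in DOC and 28.1, 27.5 and 32.0 CPM in COM, against 31.6, 33.5 and 29.99 CPM in BLANK. NEK2 (chr1:211658256-211675621), a kinase of centrosome separation, overlapped in every pair of groups. Its changes were -0.05 ± 0.07 (adjusted p = 0.63) in AgNPs, -0.05 ± 0.07 (adjusted p = 0.69) in DOC and -0.12 ± 0.07 (adjusted p = 0.185) in COM.

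The entry kinase PLK1 was among the spindle genes that fell with AgNPs and not with DOC. PLK1 had 119.9, 117 and 121 CPM in AgNPs, 188, 196 and 202 CPM in DOC and 104, 108 and 116 CPM in COM, against 189, 190 and 201 CPM in BLANK. AgNPs and COM lay below BLANK, COM lay below AgNPs, and DOC overlapped BLANK. Its changes were -0.70 ± 0.04 (adjusted p = 1.83e-17) in AgNPs, 0.01 ± 0.03 (adjusted p = 0.824) in DOC and -0.82 ± 0.04 (adjusted p = 1.7e-19) in COM. AURKA, the centrosomal Aurora kinase, stood at -0.55 ± 0.04 (adjusted p = 5.55e-14) in AgNPs, -0.02 ± 0.04 (adjusted p = 0.797) in DOC and -0.60 ± 0.04 (adjusted p = 4.37e-15) in COM, and its activator TPX2 at -0.52 ± 0.03, -0.03 ± 0.03 and -0.65 ± 0.03. TACC3, which builds bridges between kinetochore microtubules with CKAP5, moved in DOC by -0.27 ± 0.07 (adjusted p = 0.0176) and CKAP5 by -0.10 ± 0.03 (adjusted p = 0.0142). The DOC calls of TACC3, CKAP5 and the hyaluronan receptor gene HMMR each ended without some single libraries, with adjusted p up to 0.0654, 0.0653 and 0.181. For TACC3 these were BLANK replicates 2 and 3 and DOC replicate 2, and for CKAP5 they were BLANK replicates 1 and 3 and DOC replicates 2 and 3. For HMMR they were all AgNPs libraries, BLANK replicates 1 and 2 and DOC replicates 2 and 3.

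All 4 cytokinesis genes fell in AgNPs and in COM and 1 in DOC, with medians of -0.34, -0.44 and -0.03. ANLN had 211, 208 and 212 CPM in AgNPs, 254, 244 and 240.2 CPM in DOC and 180, 185 and 189.7 CPM in COM, against 278, 264 and 263 CPM in BLANK. ANLN (chr7:36389862-36453791), the anillin gene of the contractile ring, separated all 4 groups. Its log2 changes were -0.35 ± 0.03 (adjusted p = 3.02e-11) in AgNPs, -0.13 ± 0.03 (adjusted p = 0.00345) in DOC and -0.54 ± 0.03 (adjusted p = 2.61e-16) in COM. PRC1 had 100.1, 102 and 99.5 CPM in AgNPs, 135, 129.8 and 126 CPM in DOC and 98.3, 93.6 and 94.7 CPM in COM, against 130.2, 133 and 134 CPM in BLANK. PRC1 (chr15:90966040-90994535), which bundles microtubules of the central spindle, had AgNPs and COM below BLANK and DOC overlapping it. Its changes were -0.40 ± 0.04 (adjusted p = 3.02e-11) in AgNPs, -0.02 ± 0.03 (adjusted p = 0.677) in DOC and -0.47 ± 0.04 (adjusted p = 3.81e-13) in COM. ECT2 had 133, 133 and 136 CPM in AgNPs, 161, 168 and 169.6 CPM in DOC and 125, 125 and 127 CPM in COM, against 170.2, 159.7 and 150.5 CPM in BLANK. ECT2 (chr3:172750726-172829265), the exchange factor that activates RhoA at the furrow, had AgNPs and COM below BLANK and the DOC and BLANK ranges overlapping. Its changes were -0.26 ± 0.04 (adjusted p = 7.22e-07) in AgNPs, 0.05 ± 0.04 (adjusted p = 0.331) in DOC and -0.35 ± 0.04 (adjusted p = 1.3e-09) in COM. RACGAP1, the centralspindlin subunit that recruits ECT2, changed by -0.33 ± 0.04 (adjusted p = 2.82e-09) in AgNPs and -0.41 ± 0.04 (adjusted p = 1.81e-11) in COM.

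Set side by side, the summed levels of the roles had the same order of group means. Condensin and chromosome structure genes summed to 1324 to 1337 CPM in AgNPs, 1691 to 1778 CPM in DOC and 1114 to 1158 CPM in COM, against 1828 to 1880 CPM in BLANK. Kinetochore genes summed to 646.3 to 659.7 CPM in AgNPs, 805 to 902 CPM in DOC and 513 to 534 CPM in COM, against 918 to 936 CPM in BLANK, a sum in which CENPF weighs most. Cytokinesis genes summed to 529 to 538 CPM in AgNPs, 649 to 666 CPM in DOC and 483 to 494 CPM in COM, against 652 to 682 CPM in BLANK. DOC and BLANK did not overlap in the kinetochore and condensin sums and overlapped in the cytokinesis sum. Checkpoint genes had the narrowest spread of group means, with 407 CPM in AgNPs, 439.8 CPM in DOC and 381 CPM in COM, against 456 CPM in BLANK (SD 2.4, 6.8, 2.4 and 8.8, n = 3 each). These sums are dominated by the abundant genes, and differences between roles were not tested.

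**Figure D3:**
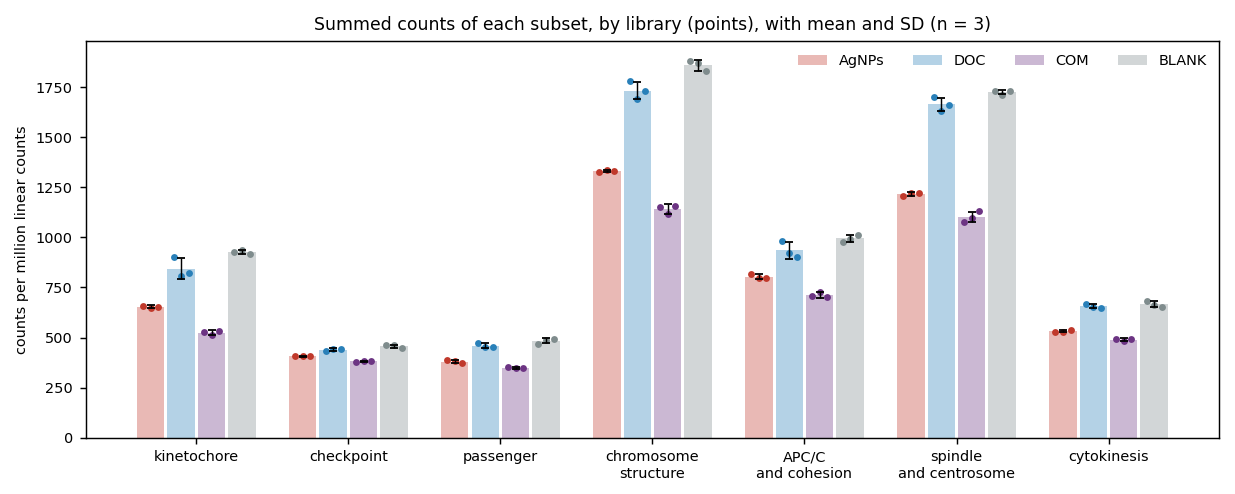
Summed CPM of the genes of each of the 7 roles in AgNPs, DOC, COM and BLANK; points are libraries, bars the mean and whiskers the SD (n = 3). COM has the lowest mean in each role, and the DOC mean lies between the AgNPs and BLANK means.

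COM vs AgNPs asks what DOC added to AgNPs. Here 26 of the 50 genes were lower, none was higher and 24 did not pass, with a median log2 change of -0.13, beside 21.9% of all genes called, 12% lower and 9.87% higher. By role, 4 of 7 kinetochore genes fell, 2 of 5 checkpoint, 2 of 4 passenger, 7 of 8 condensin and chromosome structure, 3 of 9 anaphase promoting complex and cohesion, 7 of 13 spindle and 1 of 4 cytokinesis genes. The changes ran from -0.43 ± 0.07 (adjusted p = 0.000169) for SPC24 and -0.40 ± 0.04 (adjusted p = 2.89e-10) for CENPF to 0.12 ± 0.05 (adjusted p = 0.126) for CDCA8. The COM and AgNPs libraries did not overlap for 30 lower genes, beside 19.2% of all genes, and for no higher gene, beside 17.9%. In this comparison 18 of the 26 calls held without any 1 library. The 8 that did not were NUF2, BUB3, NCAPH, SMC4, UBE2S, CDCA3, PLK1 and DLGAP5, with adjusted p up to 0.182. Without AgNPs replicate 1 NUF2, BUB3, UBE2S and PLK1 lost it, without AgNPs replicate 2 NUF2, SMC4 and DLGAP5, and without AgNPs replicate 3 BUB3, NCAPH, SMC4, UBE2S, CDCA3 and PLK1. Without COM replicate 1 NUF2, BUB3, NCAPH, UBE2S, PLK1 and DLGAP5 lost it, without COM replicate 2 SMC4, UBE2S, CDCA3 and PLK1, and without COM replicate 3 NUF2, BUB3, UBE2S, CDCA3 and DLGAP5. With limma on log2(FPKM + 1), 5 calls ended, those of BUB3, NCAPD2, SMC4, PLK1 and DLGAP5, with NCAPD2 at -0.04 (adjusted p = 0.748). NDC80, MAD2L1 and ASPM were called lower without 1 library each, COM replicate 3, AgNPs replicate 1 and AgNPs replicate 3 in that order (adjusted p from 0.0329 to 0.0487).

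COM vs DOC asks what AgNPs added to DOC. Of the 50 genes 45 were lower, 1 was higher and 4 did not pass, with a median log2 change of -0.41, beside 36.6% of all genes called, 18.5% lower and 18.1% higher. The largest changes were of CENPF (-1.06 ± 0.03), MKI67 (-1.05 ± 0.03) and SAPCD2 (-1.04 ± 0.05), and 15 genes were at -0.5 or less, beside 5.21% of all genes. Libraries did not overlap for 44 lower genes, beside 22.7% of all genes, and for 2 higher genes, beside 22.5%. CDCA5 was higher in COM, by 0.11 ± 0.04 (adjusted p = 0.0263), with its 3 COM libraries above its 3 DOC libraries, and that call ended without DOC replicate 3 or COM replicate 2 or 3 (log2 0.09 to 0.11, adjusted p up to 0.138). TTK was at 0.11 ± 0.05 (adjusted p = 0.0805) and ZWINT at -0.08 ± 0.04 (adjusted p = 0.167). TTK was called higher without BLANK replicate 1 or DOC replicate 3 (adjusted p = 0.048 at most), and ZWINT lower without DOC replicate 3 (adjusted p = 0.0314).

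AgNPs vs DOC compared the single treatments directly. Of the 50 genes 37 were lower and 2 higher in AgNPs, with a median log2 change of -0.30, beside 25.6% of all genes called, 11.9% lower and 13.7% higher. Libraries did not overlap for 40 lower genes and 3 higher ones, beside 18.4% and 19.2% of all genes. Furthest below DOC were PLK1 at -0.71 ± 0.04 (adjusted p = 1.64e-17), SAPCD2 at -0.77 ± 0.05 (adjusted p = 1.73e-15) and DLGAP5 at -0.70 ± 0.04 (adjusted p = 1.74e-15). ZWINT was higher in AgNPs by 0.25 ± 0.04 (adjusted p = 3.72e-05) and kept that call without any 1 library. CDCA5 was higher by 0.12 ± 0.04 (adjusted p = 0.0224), a call that ended without AgNPs replicate 1 or DOC replicate 3 (adjusted p up to 0.14). Of condensin I, NCAPG stood at 0.01 ± 0.04 (adjusted p = 0.871) and SMC2 at 0.00 ± 0.04 (adjusted p = 0.99). Of the 39 calls, 33 held without any 1 library, and those of NDC80, NUF2, SPC25, MAD2L1, BIRC5 and CDCA5 did not, with adjusted p up to 0.261. The calls lost were NDC80, SPC25, MAD2L1 and CDCA5 without AgNPs replicate 1, NDC80, MAD2L1 and BIRC5 without AgNPs replicate 2, and NUF2, SPC25 and BIRC5 without AgNPs replicate 3. They were NDC80, NUF2, SPC25 and BIRC5 without DOC replicate 1, NUF2 and MAD2L1 without DOC replicate 2, and NDC80, SPC25 and CDCA5 without DOC replicate 3. TACC3 was called lower without DOC replicate 3 or COM replicate 1 and TTK higher without DOC replicate 3 (adjusted p from 0.0359 to 0.0431). SPC24 stood at 0.17 ± 0.07 (adjusted p = 0.0558) and was called higher without DOC replicate 1, at 0.27 (adjusted p = 0.000103).

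The effect of DOC with AgNPs minus its effect without AgNPs, an interaction on the log2 scale, was called for 3 of the 50 genes, all negative, beside 1.11% of all genes called, 0.375% negative and 0.731% positive. They were CENPF at -0.21 ± 0.05 (adjusted p = 0.0214), TOP2A at -0.20 ± 0.05 (adjusted p = 0.0161) and MKI67 at -0.21 ± 0.04 (adjusted p = 0.00787). For CENPF, DOC changed the level by -0.40 ± 0.04 (adjusted p = 2.89e-10) with AgNPs and by -0.20 ± 0.03 (adjusted p = 3.74e-05) without. For TOP2A the values were -0.28 ± 0.03 (adjusted p = 1.11e-07) with AgNPs and -0.08 ± 0.03 (adjusted p = 0.0538) without, and for MKI67 -0.39 ± 0.03 (adjusted p = 5.05e-11) with and -0.18 ± 0.03 (adjusted p = 6.25e-05) without. COM was thus lower than the sum of the single log2 changes for these 3 genes. DOC replicate 1 was the highest DOC library in all 3. Without it the interaction was -0.15 ± 0.04 (adjusted p = 0.0182) for CENPF, -0.18 ± 0.04 (adjusted p = 0.0106) for TOP2A and -0.18 ± 0.04 (adjusted p = 0.00489) for MKI67. The CENPF call ended without BLANK replicate 3, AgNPs replicate 2 or 3 or COM replicate 2 or 3 (adjusted p from 0.0536 to 0.102). The TOP2A call ended without BLANK replicate 3, AgNPs replicate 2 or 3 or COM replicate 1 or 2 (adjusted p from 0.0513 to 0.0774). The MKI67 call held without any 1 library, and limma on log2(FPKM + 1) called none of the 3 genes. Over the 50 genes the interaction had a median of -0.05 and ran from -0.31, for SPC24, to 0.12, for AURKB. SPC24 (adjusted p = 0.17) was called without DOC replicate 3, at -0.39 (adjusted p = 0.00433).

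**Figure D4:**
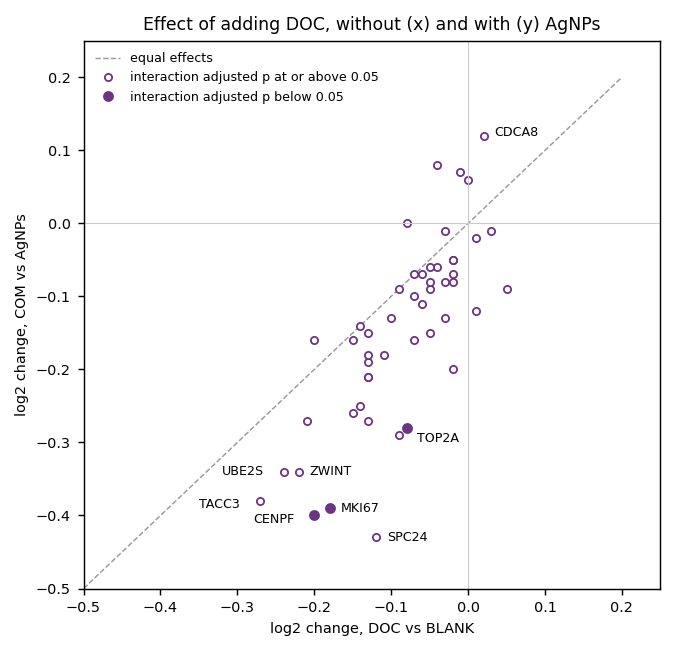
log2 change of each of the 50 genes in DOC vs BLANK (x) and in COM vs AgNPs (y), with a dashed line of equal effects; filled points had an interaction adjusted p below 0.05. CENPF, MKI67 and TOP2A are filled and lie below the line.

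Of the 3 treatments against BLANK, DOC kept the smallest share of its calls when libraries were left out singly. Without any 1 library 41 of 44 calls held in AgNPs and 46 of 46 in COM. Of the 17 calls in DOC, 8 held without any 1 library: ZWINT, CENPF, INCENP, NCAPD2, SMC2, MKI67, SAPCD2 and ANLN. Without DOC replicate 1 the count was 20, as NDC80, SPC24, TOP2A and UBE2S were called and BUB1B was not. SPC24 then stood at -0.22 ± 0.05 (adjusted p = 0.00141), against -0.12 ± 0.06 (adjusted p = 0.2) with all libraries. Without BLANK replicate 1 the count was 13, without BLANK replicate 2 it was 10, and without DOC replicate 2 or 3 it was 11. TOP2A was also called without BLANK replicate 3 (adjusted p = 0.0435). With limma on log2(FPKM + 1), CENPF, MKI67 and ZWINT were called and the other 14 were not. The call of MAD2L1 ended without BLANK replicate 2 or DOC replicate 3 (adjusted p up to 0.0796). Of the 17 genes, 16 also fell in AgNPs and in COM against the same BLANK libraries, and ZWINT was the exception in AgNPs.

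Other genes of the same machinery, 82 of them tested in 6 lists, moved in part. In COM vs BLANK 49 (59.8%) fell, beside 24.5% of all genes and 34.8% of the protein-coding genes above, 4 rose and 29 did not pass, with a median of -0.21. In AgNPs 34 (41.5%) fell, beside 16% and 22.8%, and 5 rose, with a median of -0.11. In DOC 19 (23.2%) fell, beside 9.81% and 14.9%, and none rose, with a median of -0.08. None of the 82 was called in the interaction by edgeR. The inner kinetochore and MIS12 list was spread in COM: 6 of 18 (33.3%) fell, near the protein-coding share, 1 rose and the median was -0.04. CENPA had 11.04, 11.3 and 11.1 CPM in AgNPs, 20.7, 20.6 and 20.5 CPM in DOC and 8.13, 10.7 and 9.76 CPM in COM, against 21.5, 21.4 and 21.8 CPM in BLANK. CENPA, the histone of centromeric nucleosomes, was lower in every treated library than in every BLANK library. Of all genes, 21.2% lay below BLANK without overlap in AgNPs, 16.8% in DOC and 27.4% in COM. The log2 changes of CENPA were -0.95 ± 0.08 (adjusted p = 4.36e-12) in AgNPs, -0.07 ± 0.07 (adjusted p = 0.547) in DOC and -1.18 ± 0.09 (adjusted p = 4.01e-14) in COM, and DOC was not called. CENPM, a subunit of the constitutive network, fell by 0.80 in COM, while CENPC, which bridges that network to the MIS12 complex, was at -0.04 ± 0.07 (adjusted p = 0.64) and CENPO rose by 0.16 ± 0.05.

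In the list of other checkpoint and kinetochore genes, 7 of 11 fell and 1 rose in COM. CENPE, the kinesin that moves chromosomes to the spindle equator, was at -0.94 ± 0.05 (adjusted p = 2.62e-17), and KNTC1, a subunit of the RZZ complex, at -0.49 ± 0.04 (adjusted p = 4.66e-13). SKA1 had 21.6, 19.9 and 21.1 CPM in AgNPs, 17.9, 16.3 and 17.8 CPM in DOC and 23.8, 20.6 and 20.6 CPM in COM, against 15.9, 15.2 and 16.5 CPM in BLANK. SKA1, of a complex that follows shrinking microtubules, was the gene that rose, at 0.45 ± 0.08 (adjusted p = 6.02e-06) in COM and 0.40 ± 0.07 (adjusted p = 5.69e-05) in AgNPs, and SKA3 fell by 0.41 in COM. Of the 15 anaphase promoting complex subunits and FZR1, 9 fell in COM, with ANAPC1 at -0.40 ± 0.03 (adjusted p = 6.88e-13) and ANAPC5 at -0.26 ± 0.03 (adjusted p = 6.32e-09). Of the 12 condensin II and cohesin genes, 10 fell and the cohesin release factor WAPL rose. SMC1A and SMC3, the cohesin ATPases, were at -0.46 ± 0.04 (adjusted p = 1.7e-13) and -0.58 ± 0.05 (adjusted p = 2.04e-12). Of the 14 other cytokinesis genes tested, 9 fell and 1 rose, with the mitotic kinesins KIF20A at -1.01 ± 0.04 (adjusted p = 2.89e-20) and KIF4A at -0.81 ± 0.04 (adjusted p = 2.71e-18), and the gene that rose was the ESCRT-I subunit TSG101, which cells also use in endosomal sorting. Of 12 other spindle genes 8 fell, with the kinesin KIF11 at -0.45 ± 0.04 (adjusted p = 2.04e-11) and the pole protein NUMA1 at -0.28 ± 0.03 (adjusted p = 1.78e-08). SKA1, CENPO, WAPL, TSG101, SKA3 and CENPC were named after their values were seen.

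**Figure D5:**
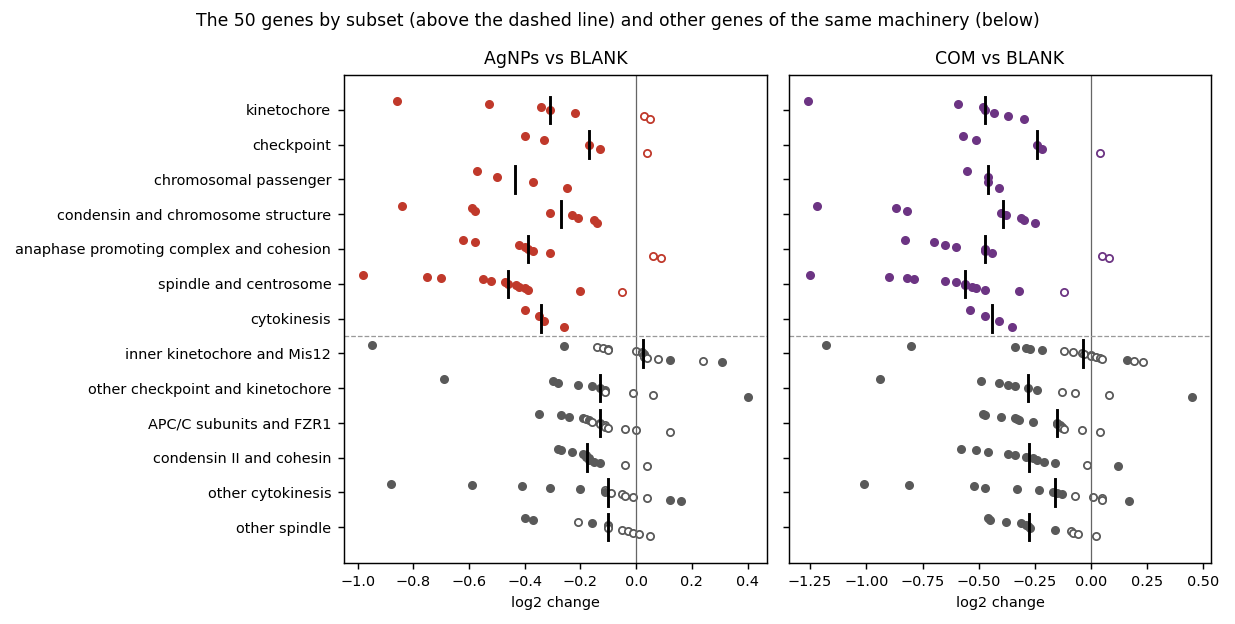
Fitted log2 change in AgNPs vs BLANK (left) and COM vs BLANK (right) of the 50 genes by role and, under the dashed line, of the 82 other tested genes by list; each point is a gene (filled where called) and each short black line a median. In COM the inner kinetochore list has its median near 0, and its called genes span from CENPA at -1.18 to CENPO at 0.16.

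Transcript rows of the deposited table gave estimates of which isoform carried the counts. In 34 of the 50 genes the leading row held under 90% of the gene's counts in BLANK, and in 5 of these its share did not overlap between COM and BLANK, or 14.7%, beside 18.8% of the 12879 tested genes with such a leading row. The 5 were HMMR, ANLN, ECT2, CDCA3 and SGO1. For HMMR the row NM_012485.2 held 59.8% in COM and 43.9% in BLANK, on average over 3 libraries. The share of rows is an estimate from short reads, and no test was made of it.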

How the data were processed

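RNA of 12 PC3 libraries, 3 per group, was sequenced. The submitters' processing notes name HISAT2, Bowtie2 2.2.5, RSEM and GRCh38, with no role given. The authors deposited expected counts per transcript, not normalised, and an expression column that was worked out from the values to be FPKM in linear rows, since the file header gives no unit. Here, expected counts of the 177700 linear rows were summed by gene and rounded, and the 44096 circular rows were left out. The test was edgeR's quasi-likelihood F-test (edgeR 4.0.16, R 4.3.3) with TMM scaling, the filterByExpr filter and a robust fit that pooled the spread of the 12 libraries. The fit had a common biological coefficient of variation of 0.0334. Tests were two-sided, adjusted by Benjamini-Hochberg over 19986 genes and called below 0.05. CPM of single members and of genes of the other lists are scaled by TMM-adjusted library sizes. Sums over roles and marker lists, single markers and the floor of 3 counts use unadjusted library totals. The errors of log2 changes are standard errors with 3 libraries a group. That floor covers counting error only. The fit was tested on simulated data with known fold changes.

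The members, lists and rule for named genes were chosen with earlier results of these data known. In each role the 2 genes with the largest and the 1 with the smallest fitted change in COM vs BLANK were given by library, with genes called against the general direction or in the interaction. Of each other list the 2 genes with the smallest adjusted p in COM vs BLANK were named, plus CENPA, CENPE and KIF20A. UBE2S, SPC24 and PLK1 were added to these after their values were seen. Same-numbered replicates showed no shared deviation: over 18 same-numbered pairs, correlations of deviations ran from -0.11 to 0.05. Such correlations cannot tell whether the samples were prepared in pairs. Alternatives were DESeq2 1.42.0, RLE factors, other filters, RefSeq rows, thinned counts, limma 3.58.1 on log2(FPKM + 1), a replicate block, fits of the libraries of both groups, and each library left out. The luminal prostate marker list is not reported here in full.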

Additional observations from a re-analysis of the deposited data

Results flagged for a closer look

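Of the 50 genes, 3 had a DOC effect that differed with and without AgNPs in a test of the difference itself. Over all tested genes 1.11% were called, 0.375% negative. The DOC effect with AgNPs minus that without was -0.21 on the log2 scale for CENPF, -0.20 for TOP2A and -0.21 for MKI67 (edgeR adjusted p = 0.0214, 0.0161 and 0.00787, n = 3 libraries a group). In all 3 genes every COM library was below every AgNPs library, as in 19.2% of all genes. Every DOC library was also below every BLANK library in these 3, as in 16.8% of all genes. The CENPF and TOP2A calls each ended without any 1 of 5 libraries, and limma on log2(FPKM + 1) called none of the 3.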

How the results depend on the processing

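The counts of lower genes among the 50 in AgNPs vs BLANK, COM vs BLANK, COM vs AgNPs, COM vs DOC and AgNPs vs DOC stayed within 1.5 times of the reported values under every alternative run. In DOC vs BLANK, 3 members and 1061 genes were called with limma on log2(FPKM + 1), beside 17 and 3391. The interaction then called 0 members and 54 genes, beside 3 and 221, and DESeq2 called 145 genes. Counts of higher members were small and moved more: in COM vs BLANK 1 with RefSeq rows only, beside 0; in COM vs DOC 0 with DESeq2, without the filter or with limma, and 2 with RefSeq rows only, beside 1; in AgNPs vs DOC 1 with DESeq2, limma or thinned counts, beside 2. Of single members, ASPM in COM vs AgNPs, not called, was at 0.00 with limma, beside -0.10. Limma ended 3 calls in AgNPs vs BLANK, 14 in DOC vs BLANK, 5 in COM vs AgNPs, 1 in COM vs DOC, 5 in AgNPs vs DOC and 3 in the interaction. DESeq2 ended 2 in DOC vs BLANK, 2 in COM vs AgNPs, 1 in COM vs DOC and 6 in AgNPs vs DOC, and RefSeq rows ended 5 in DOC vs BLANK and 6 in COM vs AgNPs. Thinned counts ended 3 in DOC vs BLANK, 3 in AgNPs vs DOC and that of TOP2A in the interaction. The fit of DOC and BLANK libraries alone ended 5 in DOC vs BLANK, the replicate block 1, and no filter ended 1 each in COM vs DOC and AgNPs vs DOC. No call in COM vs BLANK ended under any alternative run. NCAPD2 was at -0.42 with limma in COM vs BLANK and in COM vs DOC, beside -0.82 and -0.68, and ASPM at -0.31 in COM vs DOC, beside -0.49. The cause of these shifts was not tested.

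Leaving out 1 library at a time gave 0 to 1 higher member in AgNPs vs BLANK, 10 to 20 lower members and 2204 to 4027 genes in DOC vs BLANK, 0 to 2 higher members in COM vs DOC, and 1 to 3 higher members in AgNPs vs DOC. It gave 1 to 4 members and 115 to 269 genes in the interaction. With DESeq2, 75.9% of genes called in DOC vs BLANK were lower, beside 57.8%, and 65.4% in COM vs AgNPs, beside 54.8%. Same-numbered replicates showed no shared deviation. With the replicate block, 44, 16 and 46 members were lower in AgNPs, DOC and COM vs BLANK, and 3 were called in the interaction. Depth was lowest in COM.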
